A study of Mus musculus with 64 samples.

Results

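The genes described here encode the subunits of the mitochondrial respiratory chain and ATP synthase that are carried in the nucleus. They were chosen by gene symbol and then by a minimum level in at least 1 tissue, given below. The symbols include names that begin Nduf followed by the letter a, b, c, s or v and a number. The others are the 4 Sdh genes, the Uqcr genes, Cyc1, the Cox4 to Cox8 genes, and the Atp5 genes. Among the 36333 entries of the deposited expression table, 91 carried such a name. Of these, 2 are named as pseudogenes (Atp5c1-ps and Uqcrh-ps1) and were left out, and 4 (Ndufa11b, Ndufb4b, Cox7b2 and Cox8c) did not average above 1 CPM, the deposited unit of counts scaled to library size, in any tissue. The remaining 85 members comprised 37 genes of complex I, 4 of complex II, 9 of complex III, 18 of complex IV (cytochrome c oxidase, counted here with Ndufa4 and Ndufa4l2) and 17 of complex V. Many of these genes have processed pseudogenes or near copies, and how reads that match several copies were counted is not given in the sources used here, so counts of members with such copies, Atp5g1, Atp5g2 and Atp5g3 among them, are uncertain.

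The study measured polyadenylated RNA from 3 tissues, omental adipose, liver and skeletal muscle, at 5 and 20 months of age, in 64 mouse libraries, and its title ties loss of Myc to premature ageing. Knockout (KO) mice carried a floxed Myc allele (Myctm2Fwa) and a tamoxifen-activated Cre inserted at Gt(ROSA)26Sor, a locus active in most tissues. Wild-type (WT) mice were labelled C57/B6. Mice of both genotypes are labelled as given 5 daily intraperitoneal tamoxifen injections of 75 mg/kg in corn oil at weaning, at a weight of at least 15 g, so the WT mice carry the drug but not the Cre, and the strains are not labelled as littermates. For each tissue and genotype 5 libraries came from 20-month mice and 6 from 5-month mice, except 5-month KO muscle with 4. Single libraries are named here by the submitters' codes, in which K and W stand for the genotype labels and F, L and S for adipose tissue, liver and muscle. In these codes 5 or 18 precedes a number, for mice labelled 5 or 20 months old. No label says whether libraries of a group came from separate litters or batches, so p-values measure the spread between these samples only.

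Recovered depth was 15449409 to 28500633 reads per library. Myc itself, a transcription factor that drives growth and biosynthetic genes, was lower in every KO than in every WT liver library at both ages (5.46 to 33.7 CPM in WT and 1.16 to 4.04 CPM in KO at 5 months). The KO and WT ranges did not overlap in adipose tissue at 5 months, overlapped there at 20 months (5.14 to 9.72 CPM in KO and 8.10 to 16.3 CPM in WT), and overlapped in muscle at both ages. Each tissue expressed its defining markers: 8 of 8 adipocyte markers in adipose tissue and 7 of 7 hepatocyte markers in liver, and skeletal muscle fibre markers summed to 94278 to 141527 CPM in muscle. In adipose tissue, 4 of the 5-month libraries (K5F4284, K5F5218, K5F5248 and W5F5299) also held epididymal transcripts. Their marker sums were 6231, 956, 4000 and 918 CPM, against at most 0.88 CPM in the other adipose libraries. The 5-month WT muscle library W5S5299 held 126 CPM of these markers, against at most 1.49 CPM in the other muscle libraries. It was not among the libraries left out for epididymal transcripts, and the part of those transcripts in its values was not tested. Xist, which is transcribed in female cells, was present in 12 of the 5-month libraries, 2 per group, and in 0 of the 20-month libraries, so the sex of the animals moves with age.

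Oxidative phosphorylation couples the oxidation of NADH and succinate to ATP synthesis in the inner mitochondrial membrane. Complex I takes electrons from NADH and complex II takes them from succinate, ubiquinone carries them to complex III, cytochrome c carries them to complex IV, and complexes I, III and IV pump protons that drive ATP synthase, complex V. Complexes I, III, IV and V are mosaics of nuclear and mitochondrial gene products, whereas complex II is encoded in the nucleus entirely. Skeletal and heart muscle use their own isoforms of several small cytochrome c oxidase subunits, among them Cox6a2, Cox7a1 and Cox8b, where liver and most other tissues use Cox6a1, Cox7a2 and Cox8a. Factors linked with these genes include NRF1, ETS-family factors such as GABP, oestrogen-related receptors and their coactivator PGC-1alpha. Myc binds E-boxes.

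The 250 bases before the transcription start are printed for 4 members on which the results below turn: the liver-type and muscle-type subunits Cox6a1 and Cox8b, the muscle-type Cox7a1, and the ATP synthase subunit Atp5k. They are reference sequence from RefSeq on GRCm38.p6, the build named in the submitters' processing notes, given 5′ to 3′ along the gene's strand. Capitals mark matches to 1 of 5 strings searched on both strands: GCGCA and GCGC separated by any 1 base (NRF1 type), CCGGAAG (ETS type, CTTCCGG on the other strand), CACGTG (the E-box of Myc), CAGCTG (the E-box of myogenic factors) and AAGGTCA (oestrogen-related receptor type).
Cox6a1, minus strand of chr5:115348959-115349208: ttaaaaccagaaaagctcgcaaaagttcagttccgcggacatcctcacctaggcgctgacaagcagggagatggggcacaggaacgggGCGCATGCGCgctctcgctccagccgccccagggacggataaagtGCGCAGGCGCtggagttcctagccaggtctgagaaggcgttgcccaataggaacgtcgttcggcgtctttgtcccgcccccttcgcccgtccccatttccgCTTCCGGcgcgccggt
Cox8b, minus strand of chr7:140900447-140900696: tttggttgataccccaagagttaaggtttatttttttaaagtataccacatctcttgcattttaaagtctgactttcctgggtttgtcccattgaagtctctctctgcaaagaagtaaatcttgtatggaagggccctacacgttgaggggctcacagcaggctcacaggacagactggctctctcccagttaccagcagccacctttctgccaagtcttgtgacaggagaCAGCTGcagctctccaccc
Cox7a1, plus strand of chr7:30183921-30184170: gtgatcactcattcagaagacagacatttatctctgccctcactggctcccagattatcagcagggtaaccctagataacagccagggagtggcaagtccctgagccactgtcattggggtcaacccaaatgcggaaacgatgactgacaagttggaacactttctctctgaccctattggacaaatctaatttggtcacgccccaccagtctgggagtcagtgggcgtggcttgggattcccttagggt
Atp5k, minus strand of chr5:108434400-108434649: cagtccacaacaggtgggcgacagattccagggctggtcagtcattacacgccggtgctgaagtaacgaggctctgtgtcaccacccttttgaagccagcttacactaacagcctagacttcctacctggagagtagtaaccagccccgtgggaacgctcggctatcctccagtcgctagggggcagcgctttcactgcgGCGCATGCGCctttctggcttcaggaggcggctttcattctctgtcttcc

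The Cox6a1 window held the NRF1-type string at 2 places and the ETS-type string once, and the Atp5k window held the NRF1-type string once. Cox8b held the myogenic type of E-box next to its start, and the Cox7a1 window held none of the 5 strings. The windows of Cox8a, the counterpart of Cox8b, and of Cox7c, which are not printed, also held none. Promoter windows were matched for 68 of the 85 members. The NRF1-type string stood in 13 of these 68 (19.1%), against 4.23% of the 27025 genes with a window and 8.01% of the 12470 with a window that were tested in at least 1 comparison. Its carriers were spread over complex I (6 genes, Ndufa5 and Ndufs6 among them), complex II (Sdha and Sdhd), complex IV (Cox6a1) and complex V (Atp5c1, Atp5g2, Atp5h and Atp5k), with 0 in complex III. The E-box of Myc stood in 6 members (8.82%): Ndufa7, Ndufv1, Atp5g1, Atp5g3, Atp5l and Atp5pb. Of all genes with a window 6.86% held it, and of those tested 9.41%. The ETS-type string stood in 12 members (17.6%, against 7.83% of all genes and 13.5% of those tested), the myogenic E-box in 6 (8.82%, against 14.7% and 14.9%) and the oestrogen-related receptor type in 5 (7.35%, against 4.70% and 3.93%). These are matches of letters in a window and not sites of binding.

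The members made up a larger share of the RNA in muscle than in the other tissues. In WT mice at 5 months their CPM amounted to 2.95% of the library total in muscle, 1.39% ± 0.251 (SD, n = 6) in adipose tissue and 1.27% in liver, so by share adipose tissue stood level with liver or above it. Summed over all members, the levels were 36648 ± 6779 CPM in muscle, 19105 ± 3473 CPM in liver and 9482 ± 2037 CPM in adipose tissue (SD, n = 6 each). Complex V gave the highest sum in each tissue, at 14366 CPM in muscle, 7256 CPM in liver and 3407 CPM in adipose tissue. Complex I followed with 9337, 4434 and 2427 CPM. Complex II, with 4 genes, gave 2460, 1370 and 623 CPM. In bulk tissue, fewer cells of a type and less RNA per cell cannot be told apart, and this holds for every difference below.

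**Figure D1:**
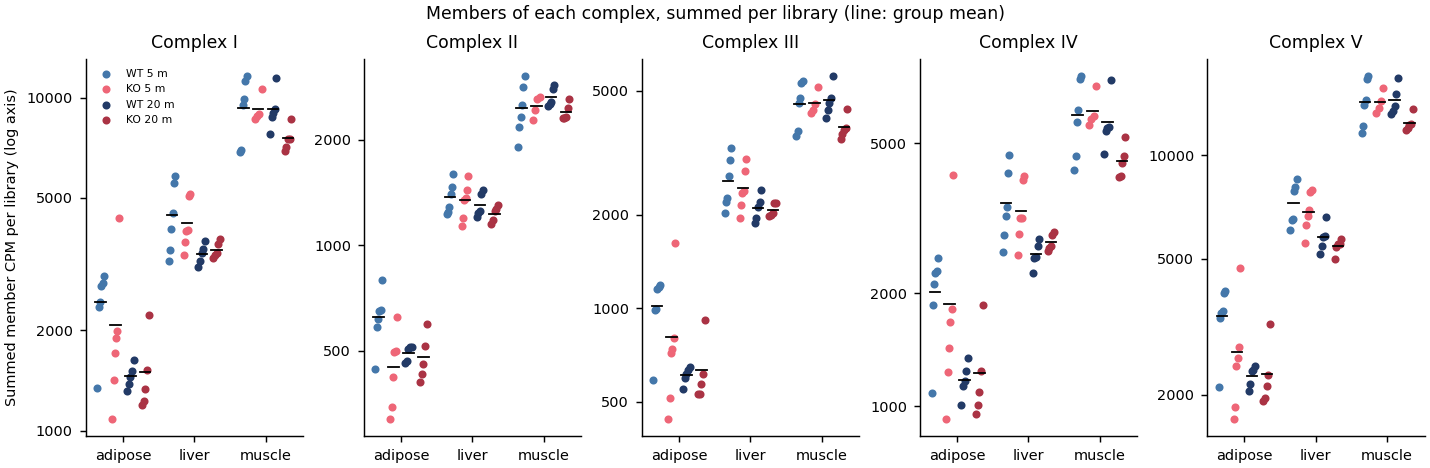
Summed CPM of the members of each complex (log axis) in every library, by tissue, genotype and age; each point is 1 library and the line is the group mean. Muscle lies above liver and liver above adipose tissue for every complex at 5 months in WT, and the KO muscle libraries at 20 months have the lowest mean of the muscle groups for every complex.

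Levels of different genes were compared per kilobase of transcript. In WT muscle at 5 months the highest was Atp5b, the catalytic beta subunit of ATP synthase, at 2258 CPM per kb, followed by Atp5a1, its alpha subunit (1361 CPM per kb), and by the muscle-type cytochrome c oxidase subunits Cox6a2 (1350 CPM per kb) and Cox8b (1282 CPM per kb). Cox4i1, the common form of subunit 4, stood at 1218 CPM per kb in muscle. Liver was also led by Atp5b (1030.0 CPM per kb), then Cox6a1 (939 CPM per kb) and Cox4i1 (851 CPM per kb). In adipose tissue, Atp5b (549 CPM per kb), Cox4i1 (528 CPM per kb) and Cox8a (523 CPM per kb) were close to each other.

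Between tissues, nearly all members ranked muscle first. Each difference was tested with limma on log2(CPM + 1), with Benjamini-Hochberg adjustment over all 14087 genes tested, and was called at an adjusted p under 0.05. Against adipose tissue, muscle was higher in 79 and lower in 3 of the 85 members, with a median log2 difference of 1.82 (all genes -0.15), while 30.2% of all genes were called higher and 38.8% lower. Against liver, muscle was higher in 65 and lower in 3 members, with a median of 0.92 (all genes 0.01), and 36.7% of all genes were called higher and 36.4% lower. Liver against adipose tissue gave 66 members higher and 4 lower, with a median of 0.91 (all genes -0.03), beside 34.1% of all genes higher and 35.7% lower. The deposited values sum to a different total in each library, and this last comparison turned on it: with each library scaled to an equal total, liver was higher in 10 members and lower in 25, with a median of -0.23 beside -1.02 over all genes. Under the same scaling muscle remained higher in 65 members and lower in 4 against adipose tissue (median 0.95) and higher in 75 and lower in 3 against liver (median 1.18).

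In the deposited values the core subunits followed that order in their group means. Ndufv1, the NADH-binding subunit of complex I, averaged 566 CPM in muscle, 263 CPM in liver and 123 CPM in adipose tissue of 5-month WT mice. Sdha, the flavoprotein of complex II, averaged 1269, 601 and 327 CPM. Uqcrfs1, the Rieske iron-sulphur protein of complex III, averaged 625, 345 and 113 CPM, and Cyc1, its cytochrome c1, 617, 333 and 109 CPM. Cyc1 was among the 3 members with the largest excess of liver over adipose tissue, with a log2 difference of 1.65 (adjusted p = 9.34e-08, limma), after Atp5g1 (2.43) and the small complex III subunit Uqcrq (1.84). Atp5b averaged 4326 ± 599 CPM in muscle and 1052 ± 258 CPM in adipose tissue (SD, n = 6 each).

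The isoforms of cytochrome c oxidase did not follow it. Cox6a2 (chr7:128205435-128206366), Cox7a1 (chr7:30184171-30186030) and Cox8b (chr7:140898942-140900446) all lie on chromosome 7 of GRCm38.p6. In WT muscle at 5 months, Cox6a2 ran from 721 to 1335 CPM with a median of 776 CPM. In liver it ran from 0 to 0.176 CPM and in adipose tissue from 0.105 to 6.93 CPM, so the tissues did not overlap. The highest adipose library, W5F5277, also held 805 CPM of skeletal muscle fibre markers, against 17.6 to 481 CPM in the other 5, and the part of those transcripts was not tested. The log2 excess of muscle over liver was 9.73 (SE 0.35, adjusted p = 2.11e-15, limma). Cox6a2 counts as a member only through muscle, with means over all libraries of 0.768 CPM in adipose tissue and 0.0399 CPM in liver. Its excess in muscle is therefore not independent of that choice. Its counterpart Cox6a1 (chr5:115345652-115348958) was the reverse, with 24.3 to 39.5 CPM in muscle, 387 to 719 CPM in liver and 157 to 339 CPM in adipose tissue. Muscle was 3.92 lower than liver on the log2 scale (log2 difference -3.92, SE 0.19, adjusted p = 2.77e-13, limma), the largest deficit of muscle among the members.

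Cox8b, the muscle type of the smallest subunit, ran from 310.0 to 612 CPM in WT muscle at 5 months, from 0 to 0.176 CPM in liver and from 1.40 to 14.1 CPM in adipose tissue. Its log2 excess over liver was 8.72 (SE 0.35, adjusted p = 8.15e-15, limma), and liver stood below adipose tissue by a log2 difference of -2.77 (SE 0.35, adjusted p = 6.46e-07). Cox8a (chr19:7215158-7217616), its counterpart, ran from 25.5 to 48.5 CPM in muscle and from 266 to 419 CPM in liver, with a log2 difference of -3.14 (SE 0.19, adjusted p = 1.2e-11). For Cox7a1 the values were 218 to 425 CPM in muscle, 0.722 to 1.999 CPM in liver and 0.302 to 3.68 CPM in adipose tissue, a log2 excess over liver of 7.17 (SE 0.26, adjusted p = 1.47e-15). Cox7a2, the counterpart of Cox7a1, was the exception among these pairs. It ran from 108 to 180.4 CPM in muscle and from 129.7 to 199.6 CPM in liver, and the difference of -0.08 on the log2 scale did not pass the test (adjusted p = 0.718) and was 0.18 with each library scaled to an equal total.

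**Figure D2:**
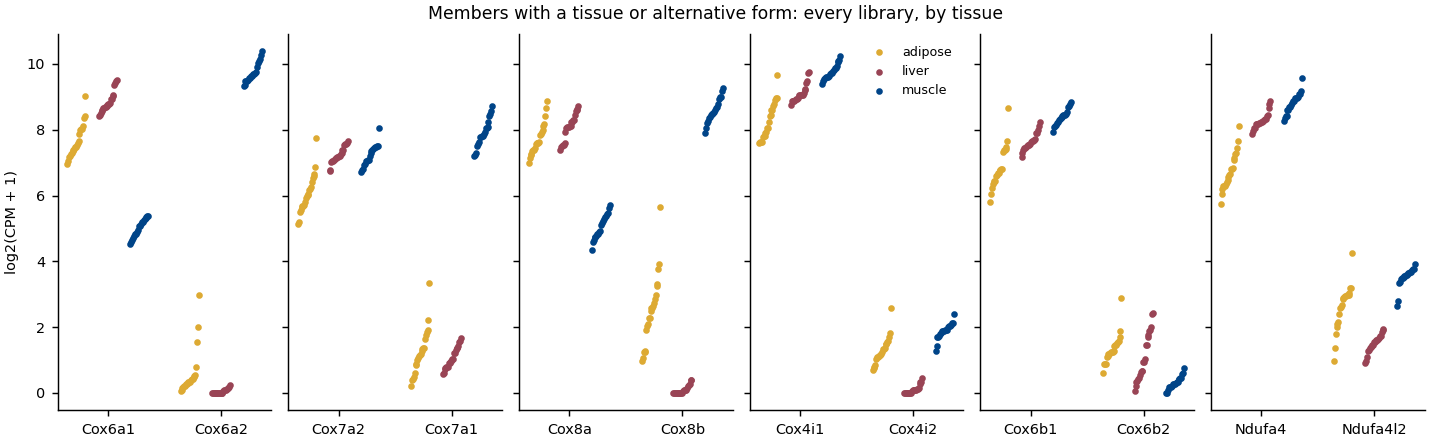
Log2(CPM + 1) of paired isoforms in every library, by tissue; each point is 1 library. Cox6a2, Cox7a1 and Cox8b are high in muscle and near 0 in liver, Cox6a1 and Cox8a are lowest in muscle, and Cox7a2 overlaps between muscle and liver.

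Expressed as a share of the pair after division by transcript length, Cox6a2 made up 95.6% ± 0.94 (SD, n = 6) of Cox6a1 plus Cox6a2 in WT muscle at 5 months. The share was 95.8% in KO at 5 months, 95.7% in WT at 20 months and 96.0% in KO at 20 months. Cox8b likewise held 94.8%, 93.8%, 95.2% and 94.9% of its pair in the same order. In adipose tissue Cox8b held group means of 3.3% to 4.5%, with 1 library, the 5-month KO library K5F5118, at 13.7%. That library had 48.9 CPM of Cox8b, against 0.971 to 3.05 CPM in the other KO libraries at 5 months, and summed brown adipocyte markers of 119.6 CPM against 1.70 to 6.75 CPM in them. The part of those cells in its values was not tested.

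The other alternative subunits were minor forms in all 3 tissues. Cox4i2, the form of subunit 4 linked with lung and low oxygen, averaged 2.80 CPM in muscle, 1.88 CPM in adipose tissue and 0.118 CPM in liver of 5-month WT mice, against 919, 399 and 642 CPM of Cox4i1. Cox6b2, a testis-enriched form, averaged 0.230 CPM in muscle and 1.77 CPM in liver, against 344 and 226 CPM of Cox6b1. Ndufa4l2, a hypoxia-linked relative of Ndufa4, averaged 9.63 CPM in muscle against 463 CPM of Ndufa4. Liver was below adipose tissue for Cox4i2 by a log2 difference of -1.24 (adjusted p = 5.3e-05) and for Ndufa4l2 by -1.21 (adjusted p = 0.00514). Cox7a2l, a supercomplex assembly factor rather than a plain subunit, averaged 124 CPM in muscle, 151 CPM in liver and 112 CPM in adipose tissue.

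Atp5g1, Atp5g2 and Atp5g3 encode the same mature c-ring protein behind different targeting peptides. Atp5g1 varied most between tissues, with 722 ± 146 CPM in muscle, 233 ± 79.9 CPM in liver and 41.4 ± 9.56 CPM in adipose tissue of 5-month WT mice (SD, n = 6 each). Muscle exceeded adipose tissue by 4.10 and liver by 1.67 on the log2 scale, both called. For Atp5g3 the difference between muscle and liver did not pass (log2 difference 0.23, adjusted p = 0.391). Per kilobase, Atp5g1 held 23.97% of Atp5g1 plus Atp5g3 in muscle, 10.4% in liver and 5.58% in adipose tissue. These shares depend on the lengths used, 2655.5 nt for Atp5g1 (the median of 2 transcripts) and 718.5 nt for Atp5g3. Without division by length, the means over all muscle libraries were 638 CPM of Atp5g1 and 630 CPM of Atp5g3. Atpif1, the inhibitor of reverse ATP synthase activity that the symbol rule leaves out, had its highest mean in adipose tissue, at 36.4 CPM against 16.6 CPM in muscle and 13.3 CPM in liver.

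Loss of Myc changed no member past the test in any tissue at either age. In adipose tissue at 5 months, 81 of 84 members tested were lower in KO than in WT, with a median log2 difference of -0.34 against -0.04 over all genes. None was called by limma or by edgeR, 15 had an unadjusted p under 0.05 (11.8% of all genes did), and 0.105% of all genes were called. The 15 were 6 genes of complex I, 3 of complex II, 1 of complex III and 5 of complex V, and 0 of complex IV. The median was -0.16 with edgeR on the recovered reads, -0.11 without the 4 libraries that hold epididymal transcripts, and -0.58 without the Xist-positive libraries. Without W5F5299 3 members were called. At 20 months the adipose difference had a median of 0.02 (all genes 0.01), with 54 members higher and 30 lower, 0 called by limma and edgeR, 0 at an unadjusted p under 0.05 (2.25% of all genes), and 0% of all genes called.

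Ndufs1, the largest subunit of complex I and a carrier of iron-sulphur clusters, showed the separation at 5 months most clearly. It ran from 58.1 to 108 CPM with a median of 69.9 CPM in WT adipose tissue, and from 38.9 to 57.2 CPM with a median of 44.4 CPM in KO. It was the only member whose groups did not overlap in that comparison, where 0.203% of all genes were lower without overlap. Its log2 difference of -0.66 (SE 0.14) gave an adjusted p of 0.0914 in limma. At 20 months Ndufs1 stood at 63.6, 67.1, 71.0, 71.1 and 72.03 CPM in WT and at 58.7, 62.3, 63.5, 64.5 and 78.1 CPM in KO, and the groups overlapped.

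In liver the medians lay close to 0 at both ages. At 5 months 63 of 82 were lower in KO, the median was -0.07 (all genes 0.01), 0 were called by limma or edgeR, 0 had an unadjusted p under 0.05 (6.94% of all genes), and 0.0696% of all genes were called. The direction turned without the Xist-positive libraries, to a median of 0.12 with 9 of 82 lower. At 20 months 46 of 82 were higher in KO, with a median of 0.03 (all genes 0.01), 0 called by limma or edgeR, 11 at an unadjusted p under 0.05 (5.8% of all genes), and 0.0232% of all genes called. Removing the length trend turned that median to -0.08. The smallest unadjusted p at 20 months was that of Cox8a. It stood at 166, 177, 179, 186 and 191 CPM in WT and at 184, 268, 272, 275 and 303 CPM in KO. In 4 of 5 KO libraries it was above all WT libraries, and the log2 difference of 0.51 (SE 0.15) had an adjusted p of 0.6248 in limma. At 5 months the smallest unadjusted p was that of Ndufa10, a complex I subunit related to nucleoside kinases, with a log2 difference of -0.25 and an adjusted p of 0.719.

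In muscle nearly all members lay lower in KO at 20 months, but no single gene passed. At 5 months 54 of 84 members were higher in KO, with a median of 0.04 (all genes 0.01), 0 called by limma or edgeR, 0 at an unadjusted p under 0.05 (4.1% of all genes), and 0% of all genes called. Without the Xist-positive libraries that median was 0.26, with 2 of 84 lower. At 20 months 83 of 84 were lower in KO, with a median of -0.33 against -0.03 over all genes. Of these, 42 had an unadjusted p under 0.05 (17 of complex I, 0 of II, 8 of III, 8 of IV and 9 of V), beside 13.8% of all genes tested, and 0 were called by limma or edgeR. By adjusted p, 0.0302% of all genes were called. No member's groups were free of overlap in that comparison, where 1.71% of all genes were lower without overlap.

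The summed levels in muscle at 20 months were 9242 CPM in WT and 7545 CPM in KO for complex I, and 4656 and 3814 CPM for complex III. Complex IV summed to 5684 and 4479 CPM, complex V to 14510 and 12442 CPM, and complex II to 2646 and 2401 CPM. The total over all members was 36738 ± 4439 CPM (32319 to 44007) in WT and 30679 ± 2233 CPM (28718 to 34469) in KO (SD, n = 5 each), so the ranges overlapped. Atp5mpl, a small membrane subunit of ATP synthase, had the smallest unadjusted p. It stood at 155, 159, 168, 172 and 232 CPM in WT and at 110.4, 113, 122, 131 and 158 CPM in KO, overlapping in 1 library of each group, with a log2 difference of -0.47 (SE 0.14, adjusted p = 0.295, limma). Scaling each library to an equal total left a median of -0.26, and removing a trend with transcript length, an alternative added after the data were seen, left -0.11 with 78 of the 82 members with a length lower. Without W18S42 the median was -0.23, with 84 of 84 lower. That WT muscle library held 2984 CPM of hepatocyte markers, against 0.152 to 9.88 CPM in the other 20-month WT muscle libraries, and the part of those transcripts was not tested.

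The effects at both ages were also set against each other in 1 interaction term per tissue, and 0 members and 0% of all genes were called in any tissue. In muscle 84 of 84 members had a more negative knockout effect at 20 than at 5 months, with a median difference of -0.35 and 11 at an unadjusted p under 0.05 (3.31% of all genes). The smallest p there was that of Cox6a1 (difference -0.51, SE 0.18, adjusted p = 0.999, limma). In adipose tissue 81 of 84 were positive with a median of 0.37 and 4 at an unadjusted p under 0.05 (2.85% of all genes), led by Sdhd, a membrane anchor of complex II (0.70, SE 0.25, adjusted p = 0.998). In liver 61 of 82 were positive with a median of 0.11 and 1 at an unadjusted p under 0.05 (3.92% of all genes), Cox8a (0.60, SE 0.21, adjusted p = 0.991). Removing the length trend turned the liver median to -0.03, and leaving out the Xist-positive libraries turned it to -0.10.

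**Figure D3:**
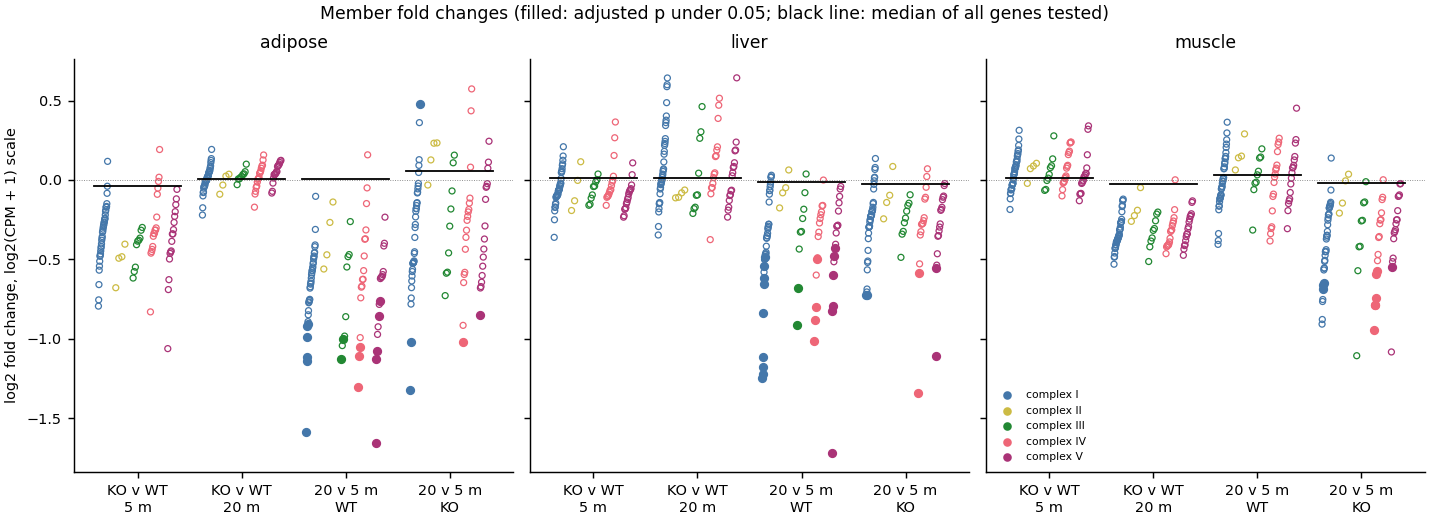
Log2 differences of the members in each comparison of genotype and age, by complex; each point is 1 member, filled where the adjusted p is under 0.05, and the black line is the median of all genes tested. No point is filled between genotypes, 16 members fell with age in WT adipose tissue and 21 in WT liver, and in muscle 10 fell in KO and 0 in WT.

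With age, members did pass the test. In WT adipose tissue 16 of 84 members fell from 5 to 20 months and 0 rose, while 3.36% of all genes tested fell and 7.41% rose. Of 84, 83 were lower, the median was -0.62 (all genes 0.01), and 10 were free of overlap between the ages, as were 4.65% of all genes in that direction. The members that fell were 6 of complex I, 2 of complex III, 3 of complex IV and 5 of complex V, and 0 of complex II. By complex the medians were -0.64 for I, -0.37 for II, -0.86 for III, -0.63 for IV and -0.62 for V. The summed level went from 9482 ± 2037 CPM (n = 6) to 6005 ± 459 CPM (n = 5; SD). The count depended on single libraries: it ran from 5 without W18F22 to 48 without W5F5299, and was 63 without the 4 libraries that hold epididymal transcripts. The shares of all genes called in fits that leave out libraries or change a setting are not given. Such counts, here and elsewhere, cannot be set against shares like the 3.36% above.

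The largest falls in WT adipose tissue were in small subunits. Atp5k, the e subunit of ATP synthase (chr5:108433246-108434399), stood at 17.9 to 57.6 CPM with a median of 52.1 CPM at 5 months and at 10.6, 11.4, 13.3, 14.7 and 18.3 CPM at 20 months. Only its lowest young library reached into the old range, and the log2 difference was -1.66 (SE 0.42, adjusted p = 0.0165, limma). Ndufb1, a small membrane-arm subunit of complex I (chr12:101968096-101975738), went from 17.5 to 57.7 CPM, median 39.5 CPM, to 9.71, 11.2, 11.3, 13.3 and 16.1 CPM, with no overlap (log2 difference -1.59, SE 0.35, adjusted p = 0.0078). Cox7c, a small subunit of complex IV (chr13:86044798-86046795), went from 58.0 to 203 CPM, median 126 CPM, to 42.0004, 46.3, 46.5, 51.1 and 55.9 CPM, again with no overlap (-1.31, SE 0.33, adjusted p = 0.0165). Ndufa3, a complex I accessory subunit (-1.14, SE 0.36, adjusted p = 0.0455), and Atp5mpl (-1.13, SE 0.27, adjusted p = 0.0118) completed the leading group. Ndufa3 was called in only 1 of 11 fits that left out 1 library, and the other 4 in 11 of 11.

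In KO adipose tissue 4 of 84 members fell with age and 1 rose, against 3.75% of all genes that fell and 10.5% that rose. The median was -0.29 (all genes 0.06), with 68 of 84 lower. Ndufb1 (log2 difference -1.33, SE 0.35, adjusted p = 0.0183), Cox7c (-1.02, SE 0.33, adjusted p = 0.0424), Ndufa6 (-1.02, SE 0.31, adjusted p = 0.0339) and Atp5mpl (-0.85, SE 0.27, adjusted p = 0.0395) fell, and all 4 were among the 16 that fell in WT. Ndufs1 was the member that rose. It ran from 38.9 to 57.2 CPM at 5 months and stood at 58.7, 62.3, 63.5, 64.5 and 78.1 CPM at 20 months, with no overlap and a log2 difference of 0.48 (SE 0.15, adjusted p = 0.0405). The inhibitor Atpif1, no member, fell by 0.89 (SE 0.28, adjusted p = 0.0401).

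The KO adipose counts moved widely with the libraries used. They ran from 0 called without K18F26 to 15 without K5F5218, and Cox7c, Atp5mpl and Ndufs1 were each called in 4 of 11 such fits. Without the 4 libraries that hold epididymal transcripts 32 members fell, with a median of -0.63, and without the Xist-positive libraries the median was -0.02. Markers of cell types were measured beside these values. Adipocyte markers summed to 15603 to 30538 CPM in WT and 8618 to 30351 CPM in KO at 5 months, and to 12369 to 18607 CPM and 12195 to 21694 CPM at 20 months (8 of 8 markers). Macrophage markers (5 of 6 above 1 CPM) summed to 743 to 1186 CPM in WT and 608 to 1792 CPM in KO at 5 months, and to 771 to 1811 CPM in WT and 1106 to 2827 CPM in KO at 20 months, overlapping between the ages in both genotypes. Markers of pericytes and smooth muscle (5 of 5) summed to 249 to 633 CPM in WT and 126 to 1292 CPM in KO at 5 months, and to 591 to 912 CPM and 620.4 to 1178 CPM at 20 months. Hepatocyte markers were also present, at 483 to 4884 CPM in WT and 1246 to 3840 CPM in KO at 5 months and at 156 to 551 CPM and 111 to 1447 CPM at 20 months (7 of 7 markers). Albumin (Alb), 1 of these markers, was a small part of the sum in young WT libraries, at 12.4 to 52.7 CPM. It ran from 1.53 to 215 CPM in KO at 5 months. At 20 months it ran from 3.37 to 132 CPM in WT and 2.26 to 514 CPM in KO. The part of all these markers in the fall of the members was not tested.

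In WT liver 21 of 82 members fell with age and 0 rose, where 4.36% of all genes tested fell and 2.83% rose. Of 82, 77 were lower, the median was -0.33 (all genes -0.01), and 17 members were free of overlap, against 2.79% of all genes. The 21 were 9 of complex I, 2 of complex III, 4 of complex IV and 6 of complex V, and 0 of complex II, whose median was -0.07 beside -0.36, -0.32, -0.33 and -0.33 for complexes I, III, IV and V. The library scaling mattered here: with each library scaled to an equal total 14 were called and the median was -0.12, with 57 of 82 lower, as the median of all genes moved by more than 0.1. The count was 33 without W5L5299 and 13 without W18L05.

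Atp5k fell most in WT liver, from 42.2 to 144 CPM (median 61.6 CPM) to 16.3, 17.04, 18.3, 20.4 and 23.4 CPM, with no overlap and a log2 difference of -1.72 (SE 0.25, adjusted p = 0.000365, limma). Ndufb1 went from 34.3 to 72.9 CPM (median 39.7 CPM) to 12.9, 16.2, 18.8, 18.9 and 21.4 CPM (-1.25, SE 0.20, adjusted p = 0.000622). The other members among the 5 largest falls were the complex I subunits Ndufa3 (-1.22, adjusted p = 0.000842), Ndufs6 (-1.18, adjusted p = 0.00758) and Ndufa1 (-1.12, adjusted p = 0.00135). All 5 were called in 11 of 11 fits that left out 1 library. Atp5b went from 1790 to 2177 CPM (median 1944 CPM) to 1304, 1337, 1351, 1452 and 1618 CPM, with no overlap, a difference of -0.48 (SE 0.11, adjusted p = 0.0118). The ubiquitous Cox8a went from 266 to 419 CPM (median 334 CPM) to between 166 and 191 CPM (-0.88, SE 0.15, adjusted p = 0.0012).

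In KO liver 6 of 82 members fell with age and 0 rose, beside 1.31% of all genes that fell and 1.68% that rose, and 74 of 82 were lower with a median of -0.24 (all genes -0.02). The groups of 11 members did not overlap, as for 2.17% of all genes. Of the 6, 5 were also among the 21 that fell in WT: Atp5k (log2 difference -1.11, SE 0.25, adjusted p = 0.02), Ndufb1 (-0.73, adjusted p = 0.0436), Ndufa1 (-0.73, adjusted p = 0.0409), Cox7c (-0.59, SE 0.13, adjusted p = 0.0205) and Atp5b (-0.56, SE 0.11, adjusted p = 0.00934). The sixth was Cox6b2, which averaged 2.63 ± 1.52 CPM (n = 6) at 5 months and 0.335 ± 0.341 CPM (n = 5; SD) at 20 months (-1.34, SE 0.31, adjusted p = 0.0236). When 1 library was left out the count ran from 1, without K18L06, to 10, without K5L5118. Cox6b2 was called in 4 of 11 such fits, and Ndufb1 and Ndufa1 in 3 each. With each library scaled to an equal total 3 were called and the median was -0.04.

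In muscle 0 members passed with age in WT and 10 in KO. In WT 0 of 84 members were called by limma and 1 by edgeR, 7 had an unadjusted p under 0.05 (35.2% of all genes), and 45 were higher and 39 lower with a median of 0.01 (all genes 0.03). That stood against 18.6% of all genes called in this comparison. Without W5S5277 1 member rose and 4 fell. The median turned to -0.07, with 51 of 84 lower, without W18S42, the library with hepatocyte transcripts, and was 0.17 without the Xist-positive libraries. Ndufs1 had the smallest p: it ran from 476 to 672 CPM (median 566 CPM) at 5 months and stood at 613, 659.8, 667, 709 and 748 CPM at 20 months, overlapping, with a log2 difference of 0.25 (SE 0.09, adjusted p = 0.0559, limma). In KO 10 of 84 fell and 0 rose, against 1.96% of all genes that fell and 3.6% that rose. Of 84, 81 were lower, the median was -0.32 (all genes -0.02), and the groups of 38 members did not overlap (18 of complex I, 0 of II, 3 of III, 9 of IV and 8 of V), against 6.87% of all genes. That the KO change differs from the WT change is the interaction given above, in which 0 members were called.

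Of the 10 members that fell in KO muscle, 6 were subunits of complex IV, 3 of complex I and 1 of complex V, and the groups of all 10 were free of overlap. Cox5b, a zinc-binding subunit of complex IV (chr1:36691487-36693388), stood at 394, 397, 409 and 518 CPM at 5 months and at 191, 197, 222.6, 224 and 278 CPM at 20 months (log2 difference -0.95, SE 0.24, adjusted p = 0.0254, limma). Cox7c stood at 397, 409, 454 and 484 CPM and at 233, 241, 245, 279.8 and 305 CPM (-0.74, SE 0.17, adjusted p = 0.0174). Every old library was below every young one for both.

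Cox7a1 stood at 263, 264, 268 and 353 CPM at 5 months and at 147, 149, 154, 179 and 198 CPM at 20 months in KO muscle (-0.79, SE 0.18, adjusted p = 0.0196, limma). Cox8a, the minor form in muscle, stood at 36.3, 38.0, 42.4 and 51.6 CPM and at 19.3, 23.2, 24.3, 25.4 and 27.3 CPM (-0.79, SE 0.16, adjusted p = 0.0122). Both forms of subunit 6a fell, Cox6a1 (-0.60, adjusted p = 0.0169) and Cox6a2 (-0.57, SE 0.16, adjusted p = 0.0433). Cox6a2 stood at 855, 1044, 1099 and 1228 CPM at 5 months and at 647, 651, 717, 719.5 and 791 CPM at 20 months. The rest were Ndufb1 (-0.68, SE 0.16, adjusted p = 0.0212), Ndufa5 (-0.66, adjusted p = 0.0432), Ndufa13 (-0.65, adjusted p = 0.0333) and Atp5g1 (-0.55, SE 0.16, adjusted p = 0.0499).

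In WT muscle the same genes overlapped between the ages or missed the test. Cox5b ran from 214 to 553 CPM (median 399 CPM) at 5 months and stood at 230.3, 285, 293, 293 and 376 CPM at 20 months. Cox7c ran from 305 to 569 CPM (median 461 CPM) and stood at 293, 321, 329, 331 and 483 CPM (log2 difference -0.34, adjusted p = 0.118, limma). Cox7a1 ran from 218 to 425 CPM and stood at 187, 218, 221, 224 and 302 CPM (-0.38, adjusted p = 0.104). For all 3 genes the young WT libraries spread more widely than the young KO ones.

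The KO muscle calls rested on few young libraries. There were 2 calls without K5S4284 and 9 without K18S64, and Cox5b was called in 3 of 9 such fits, whereas Cox8a was called in 9 of 9 and Cox7a1 and Cox7c in 8 of 9 each. Without the Xist-positive libraries 5 were called and the median was -0.39. With each library scaled to an equal total 6 were called and the median was -0.18, with 69 of 84 lower. Fibre markers varied beside these values. Markers of slow oxidative fibres (7 of 7 present) summed to 122 to 3998 CPM in WT and 414 to 4773 CPM in KO at 5 months, and to 207 to 390 CPM in WT and 216 to 947 CPM in KO at 20 months. The 3 fast myosins summed to 67798 to 89388 CPM and 68085 to 73146 CPM at 5 months and to 52859 to 80647 CPM and 60684 to 76638 CPM at 20 months. Their part in the fall was not tested.

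**Figure D4:**
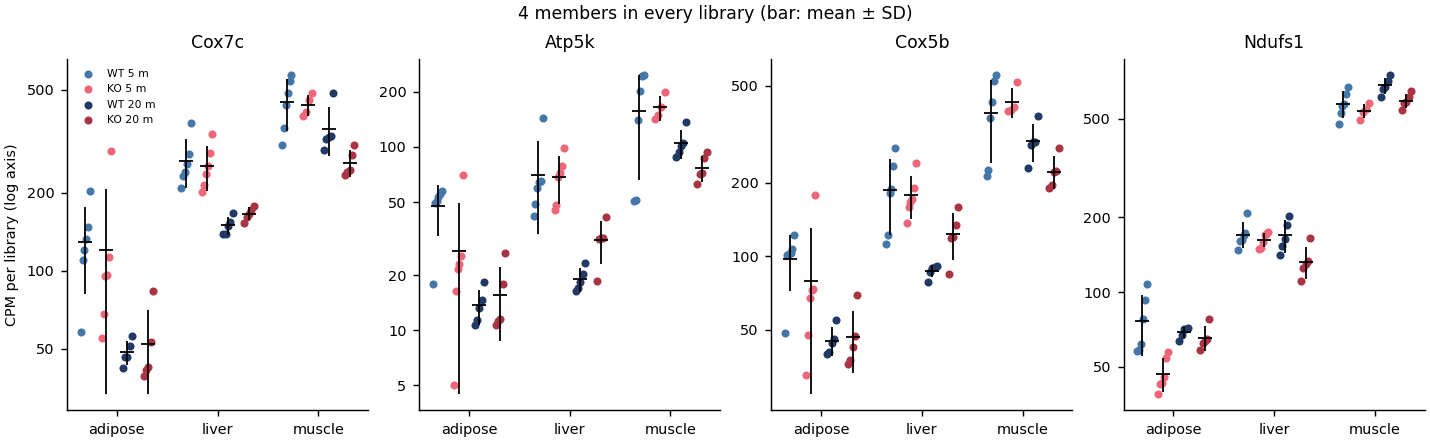
CPM (log axis) of Cox7c, Atp5k, Cox5b and Ndufs1 in every library by tissue, genotype and age; points are libraries, ordered by value within a group, and bars show the mean ± SD. Cox7c and Atp5k lie lower at 20 months in WT adipose tissue and liver, Cox5b lies lower at 20 months in KO muscle, and Ndufs1 is lowest in KO adipose tissue at 5 months.

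Over the 6 comparisons of age, which share no libraries between tissues or genotypes, 53 members fell in none, 16 in 1, 11 in 2 and 5 in 3 or more. How many other genes fell as often is not given. The 6 are not independent repeats, because young libraries of different tissues share numbers that hint at shared animals. In all 6, Xist-positive libraries stood only at 5 months. Cox7c and Ndufb1 fell in 5 of 6, missing only WT muscle, and Atp5k, Atp5mpl and Cox5b fell in 3. Atp5k stood at 88.5, 93.3, 101, 105 and 137 CPM in WT muscle at 20 months and at 62.9, 70.9, 71.6, 86.5 and 93.5 CPM in KO. In KO muscle it had stood at 142, 149.9, 166 and 199 CPM at 5 months, with no overlap and a log2 difference of -1.08 that did not pass (adjusted p = 0.0922, limma). No complex II gene fell in any of the 6. Complex II has only 4 genes, with transcripts of 1142 to 3171 nt, against a median of 755 nt over the members. The part of length in this was not tested.

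In muscle of both genotypes the mean composition of 1 isoform pair differed between the ages, in tests that did not pass after adjustment. As a share of Cox7a1 plus Cox7a2 per kilobase, Cox7a1 held 72.4% to 79.8% in WT at 5 months (mean 77.3% ± 2.59, SD, n = 6) and 65.7% to 71.6% at 20 months (68.5% ± 2.18, n = 5). In KO it held 76.6% to 77.2% at 5 months (76.9% ± 0.29, n = 4) and 65.7% to 70.8% at 20 months (67.4% ± 2.01, n = 5). The ages did not overlap in either genotype. The difference was -8.79 percentage points in WT (exact two-sided permutation p = 0.00433, the smallest these group sizes allow, adjusted p = 0.0519 over 12 tests) and -9.45 points in KO (exact p = 0.0159, also the smallest possible, adjusted p = 0.0952). Neither passed after adjustment. This pair was singled out after its values were seen. The transcript of Cox7a1 is 393 nt long and that of Cox7a2 659 nt, and the part of length in the difference was not tested.

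Between genotypes the Cox7a1 share differed by -0.44 points at 5 months (exact permutation p = 0.733; -1.43 points and exact p = 0.0317 without W5S5004) and -1.10 points at 20 months (exact permutation p = 0.389). Leaving out each library in turn gave age differences of -9.77 to -8.08 points in WT and -10.3 to -9.02 points in KO. Without division by length they were -10.5 and -11.2 points. At the level of the genes, Cox7a2 in muscle differed by 0.26 with age in WT (adjusted p = 0.309, limma) and by -0.11 in KO (adjusted p = 0.76), neither past the test. Among the other pairs in muscle, Cox8b gained 1.11 points with age in KO (exact permutation p = 0.0476, adjusted p = 0.19). Atp5g1, per kilobase, held 23.97% in WT and 21.95% in KO of Atp5g1 plus Atp5g3 at 5 months, and 20.5% and 19.3% at 20 months.

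The members are short genes, and short genes of other kinds also lay lower with age in WT adipose tissue, WT liver and KO muscle. The median transcript length of the 83 members with a length was 755 nt, against 2887 nt over the genes tested in liver, and 66.3% of members but 6.13% of those genes were at most 1000 nt long. The labels' protocols include fragmentation and a size selection step. In WT adipose tissue the median log2 change with age was -0.77 for the 27 members of at most 600 nt and -0.64 for the 127 other genes of that length. In WT liver the corresponding medians were -0.50 (26 members) and -0.48 (119 genes), and in KO muscle -0.50 (26 members) and -0.31 (114 genes). Over 1000 and up to 2000 nt the medians of members and other genes were -0.57 and -0.21 in WT adipose tissue, -0.26 and -0.11 in WT liver, and -0.19 and -0.11 in KO muscle. Above 2000 nt, with 6 members, they were -0.25 and 0.10, -0.05 and 0.03, and -0.04 and 0.03.

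**Figure D5:**
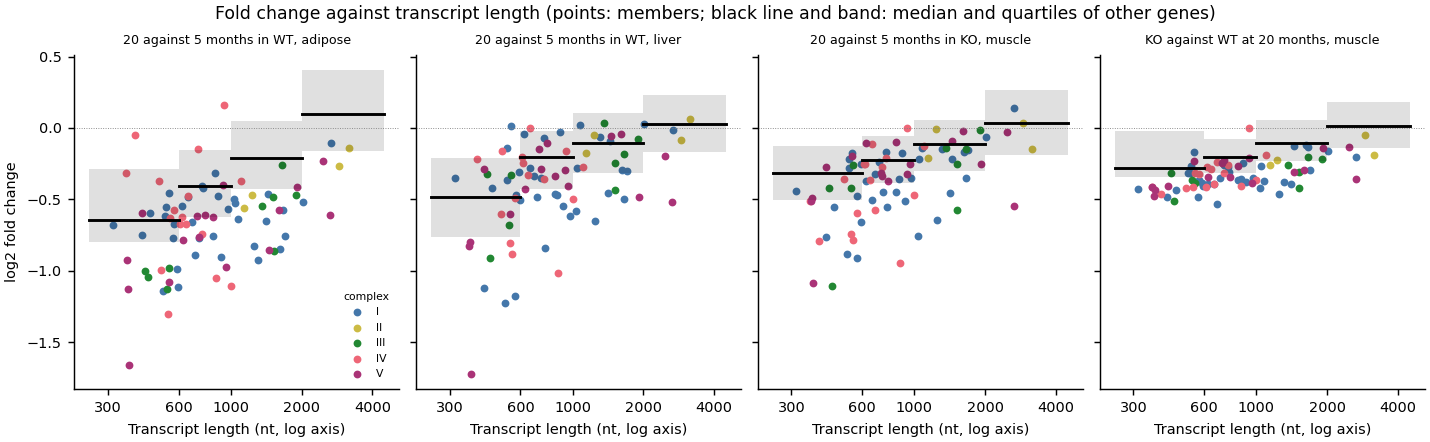
Log2 difference of each member against its transcript length (log axis, nt) in 4 comparisons; points are members, and the line and band are the median and quartiles of the other genes in 4 length classes. Shorter members and shorter other genes both lie lower in WT adipose tissue and liver with age, in KO muscle with age and in KO against WT muscle at 20 months.

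As a description across genes, which are not independent, Pearson's r between log2 difference and log2 length was 0.39 over 82 members and 0.38 over 13311 other genes in WT adipose tissue. It was 0.44 (80 members) and 0.25 (12058 genes) in WT liver, 0.52 (82 members) and 0.27 (12381 genes) in KO muscle, and 0.58 and 0.25 for KO against WT muscle at 20 months. In the other comparisons of age r was 0.33 and 0.24 in KO adipose tissue. There it was 0.28 and 0.08 in KO liver, and 0.24 and 0.07 in WT muscle, so other genes showed little trend in these 2. For KO against WT liver at 20 months the slope was the opposite, with r of -0.46 and -0.13. All points of a comparison share its libraries. With the length trend of all genes removed, a choice added after the data were seen, the age medians of the members were -0.24 in WT adipose tissue, -0.08 in WT liver and -0.06 in KO muscle. Under it 16 members were lower in WT adipose tissue, 13 lower and 5 higher in WT liver, and 9 lower in KO muscle, and Cox7c was lower in all 6 age comparisons. Ndufb1 and Ndufb4c have no transcript length here and could not be fitted in this way. In WT muscle 8 members were then higher and 2 lower, Cox7c and Cox7a1. In KO against WT adipose tissue at 5 months 3 were lower: Ndufs1, Sdhd and Uqcrfs1. The shares of all genes called with the length trend removed are not given, so these counts cannot be set against a background. How much of the members' change follows length rather than their function was not tested.

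Of the genes around the complexes none was called between genotypes, and with age most calls came in WT muscle, where 18.6% of all genes were called. Of the assembly factors, which insert cofactors and join subunits, 46 of 47 were tested, and 12 rose and 0 fell with age in WT muscle, with a median of 0.18, beside 10.9% of all genes that rose and 7.68% that fell. They included Tmem126b (0.90) and Atpaf1 (0.70), which assemble complexes I and V, and Cox11 (0.66) and Coa5 (0.63), which act on complex IV. In KO muscle 1 rose, the complex III factor Ttc19 (0.45), beside 3.6% of all genes. In WT liver 5 fell and 0 rose, led by the short complex IV factor Pet100 (-1.38, adjusted p = 0.00133, limma), beside 4.36% of all genes that fell. In KO liver Cox19 rose (0.76) and Pet100 fell (-0.86), beside 1.68% and 1.31% of all genes. In WT adipose tissue Cox18 fell (-0.43), beside 3.36% of all genes, and in KO adipose tissue Acad9 (0.75) and Coa5 (0.47) rose, beside 10.5% of all genes. Apart from the rises in WT muscle and the falls in WT liver, these counts are of 1 or 2 genes in 46. For KO against WT muscle at 20 months the assembly factors had a median of -0.31 with 0 called, close to the -0.33 of the subunits.

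The same shares of all genes stand behind the smaller lists. Among 13 regulators and mitochondrial transcription genes, 4 rose and 1 fell with age in WT muscle. The mitochondrial transcription factor Tfam (0.70), the GABP subunit Gabpa (0.48) and the coactivator Ppargc1b (1.43) rose, and the related coactivator Pprc1 fell (-0.58). In WT adipose tissue the mitochondrial helicase Twnk fell (-0.40). Of 13 citric acid cycle genes, fumarase (Fh1) fell in WT (-0.81) and KO (-0.79) liver. Idh3a (0.92) and Sucla2 (0.49) rose in KO adipose tissue, and Sucla2 rose in WT muscle (0.36). Among 11 electron carriers, transporters and remaining subunits, Etfdh, which passes electrons from fatty acid oxidation to ubiquinone, rose in KO adipose tissue (0.41), and 0 were called in the other comparisons of age and genotype. The 13 subunits encoded in mitochondrial DNA are listed at 0 in every library, so the balance of nuclear and mitochondrial subunits was not analysed here.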

How the data were processed

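Libraries were made with the NEBNext Ultra Directional kit after poly-T selection, per the labels' protocols. The deposited table gives 1 CPM-type signal per gene and library, exported from CLC per the file headers. Its columns sum to 529294 to 1640180, and division by the value of 1 read gave whole reads for 100% of values in every library (tolerance 0.01 read). The submitters' processing notes name GRCm38.p6 and mm10. The aligner, the annotation and the strand setting are not given in the sources used here.

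Members and lists were chosen with earlier results of these data known. Log2(CPM + 1) was fitted with limma 3.58.1 (R 4.3.3), with a mean for each of a tissue's 4 groups, or for each tissue in the 18 WT libraries at 5 months. The empirical Bayes step used a trend and Benjamini-Hochberg adjustment covered all genes that exceeded 1 CPM in a number of libraries equal to the size of the smallest group or more (14286 in adipose tissue, 12924 in liver, 13237 in muscle). A gene was called at an adjusted p under 0.05. A fold change on this scale understates the change of low genes. Alternatives were edgeR 4.0.16 on the recovered reads, scaling each library to an equal total, a pseudocount of 0.1, no filter and a replicate block. Others left out each library in turn, the Xist-positive libraries, or the adipose libraries with epididymal transcripts. Removing a trend with GENCODE vM21 transcript length was added after the data were seen. Named genes were the isoform and core subunits, up to 5 called members with the largest rise and fall per comparison, the member with the smallest p where none was called, and the 3 with the largest tissue difference each way. Other genes were named after their values were seen. The fit was tested on simulated data. No libraries agreed within sampling noise. One result for a gene outside the members is not reported here.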

Additional observations from a re-analysis of the deposited data

Results flagged for a closer look

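The highest or lowest library of a group of 4 to 6 was set against the others by Dixon's test at its 95% critical value. It stood apart in 42 of 302 groups of values tested (complex sums and the subunits named as isoforms or core members). Chance gives about 1 in 20 groups, and values of 1 library are not independent of each other. The explanations were not tested.

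The 5-month KO adipose library K5F5118 was high in 15 of these. Its summed CPM was 4354 for complex I (others 1086 to 1996), 1616 for complex III (others 440.1 to 802), 4128 for complex IV (others 927 to 1814) and 4704 for complex V (others 1704 to 2765). Its subunit levels were 520.2 CPM for Cox6a1, 404 CPM for Cox6b1, 6.36 CPM for Cox6b2, 9.18 CPM for Cox7a1 and 213 CPM for Cox7a2. They were 172 CPM for Cox7b, 469.7 CPM for Cox8a, 48.9 CPM for Cox8b, 275 CPM for Ndufa4, 81.3 CPM for Atp5g1 and 152 CPM for Cyc1. This library was the one with 119.6 CPM of brown adipocyte markers.

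The 5-month WT adipose library W5F5299, one of the libraries with epididymal transcripts, was low, with 1347 CPM for complex I (others 2345 to 2924), 589 CPM for complex III (others 986 to 1183), 2110.0 CPM for complex V (others 3365 to 4034) and 74.1 CPM for Cox6b1. The 20-month KO adipose library K18F27 was high, with 917 CPM for complex III, 3229 CPM for complex V, 166 CPM for Cox6b1 and 54.8 CPM for Cox7b. It also held 141 CPM of Ndufa4, 43.8 CPM of Atp5g1, 186 CPM of Atp5g3 and 115 CPM of Ndufv1. The 5-month KO muscle library K5S4284 was high in complex I (10654 CPM), Cox7a1 (353 CPM), Cox7a2 (179.8 CPM) and Atp5g1 (921 CPM), and the 20-month KO muscle library K18S64 in complex V (13683 CPM) and Uqcrfs1 (683 CPM). The 5-month WT adipose library W5F5277 was high in Cox4i2 (4.95 CPM), Cox6a2 (6.93 CPM) and Ndufa4l2 (18.2 CPM), and held 805 CPM of skeletal muscle fibre markers and 287 CPM of fast myosins (others at most 481 and 48.9 CPM).

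The remaining ones were single values. Cox7a1 was 1.999 CPM in the 5-month WT liver library W5L5005 (others at most 1.06 CPM), and Cox8a was 184 CPM in the 20-month KO liver library K18L06 (others 268 to 303 CPM) and 40.3 CPM in the 20-month WT muscle library W18S42, the one with 2984 CPM of hepatocyte markers. Atp5g1 was 187 CPM in the 20-month KO liver library K18L09 and Atp5b 1170 CPM in K18L10, and Atp5g3 was 107 CPM in the 20-month WT adipose library W18F22.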

How the results depend on the processing

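Counts of members called moved by more than 1.5 times under these settings. The shares of all genes called under them are not given, so these counts do not stand as results about the members. With each library scaled to an equal total they were 8 in KO adipose ageing (5 otherwise), 3 in KO liver (6), 4 in WT muscle (0), 6 in KO muscle (10) and 35 for liver against adipose tissue (70). EdgeR gave 10 in KO adipose and 1 in WT muscle ageing. No filter gave 6 in WT adipose (16), 1 in KO adipose and 6 in KO muscle. Removing the length trend gave 3 for KO against WT adipose tissue at 5 months (0), 16 in KO adipose (6 higher and 10 lower, median -0.027) and 10 in WT muscle (8 higher and 2 lower). Leaving out the adipose libraries with epididymal transcripts gave 63 in WT and 32 in KO adipose tissue. Leaving out the Xist-positive ones gave 2 for KO against WT adipose tissue at 5 months, 9 in WT adipose, 13 in WT liver (21), 11 in KO liver and 5 in KO muscle.

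Leaving out each library in turn gave 5 to 48 calls in WT adipose, 0 to 15 in KO adipose, 13 (without W18L05) to 33 (without W5L5299) in WT liver and 1 to 10 in KO liver. It gave 0 to 5 (without W5S5277) in WT muscle, 2 to 9 in KO muscle and 0 to 3 (without W5F5299) for KO against WT adipose tissue at 5 months. It gave 0 for the other comparisons of genotype and the interactions, 61 to 71 for muscle against liver, 79 to 83 for muscle against adipose tissue and 64 to 72 for liver against adipose tissue.

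Directions turned for Cox7a2 between muscle and liver (0.18 scaled to an equal total, and -0.146 to 0.000336 with each library left out, the latter without W5S5277) and, scaled to an equal total, for Cox7a2 in muscle against adipose tissue (-0.044) and for Cox6a1 (-0.13), Cox7a2 (-0.23) and Cox8a (-0.88) in liver against adipose tissue. Of the alternatives for single genes, 1094 kept direction and side of the threshold, 110 lost the call, 12 gained it and 6 turned. Cox7a1 share between genotypes at 5 months became -1.43 points without W5S5004 (exact permutation p = 0.0317). The causes were not tested.

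Libraries of different tissues share numbers in their codes. With the number as a replicate block the calls were 71 for muscle against liver, 83 for muscle against adipose tissue and 70 for liver against adipose tissue. Of 14 same-number pairs 11 correlated above 0.1 (-0.0744 to 0.315, median 0.171), against a median of -0.0476 for pairs with different numbers. This hints at shared animals, but 3 pairs were below 0.1 and no label says what a number marks, so the fit without the block was kept. For the comparisons of genotype and age no paired analysis was possible because these groups share no numbers within a tissue. Depth of 15449409 reads or more limits only the rarest isoforms, such as Cox6a2 in liver.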
